A study of Mus musculus with 7 samples.

Results

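CTCF binding in mouse kidney was compared with that in mouse lung, by the peaks of 1 ChIP-exo 5.0 library of each organ. All peaks placed on the 19 autosomes were taken. Peaks on the mitochondrial genome and on unplaced contigs were left out, as were bins of 10 kb that held 20 or more peaks in both libraries, which were 25 bins on the autosomes. This left 412038 kidney peaks and 107545 lung peaks, which together were 519583 of the 2603994 peaks in the 7 libraries of the series. Both organs came from wildtype male mice aged 16 weeks, and 100 mg of tissue was processed per organ. The labels and the methods give neither the number of animals nor whether they were pooled. The other libraries were of brain, of liver and of 3 amounts of liver cells, from 2700000 cells downwards. All 7 carry a CTCF antibody in the labels, although the extraction protocol of the labels names IgG, and crosslinking is given as 1% formaldehyde in the methods of the study and as 0.3% in the labels. Each organ had 1 library, so no test of kidney against lung was possible.

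CTCF is a DNA-binding protein with many zinc fingers that sits at insulators and at the borders of chromatin domains, where it stops the loop-forming cohesin ring. Most of its sites are occupied in many tissues, and the strong sites share a core motif. In ChIP-exo an exonuclease trims the precipitated DNA from the 5′ end until it meets the crosslinked protein, so that reads on the forward strand begin on one side of the protein and reads on the reverse strand on the other side.

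Promoters with the motif and with signal in both organs are shown first. The CTCF core motif, of 12 letters and searched on both strands, lay in 180 of 31396 autosomal promoter windows, a share of 0.573%. Each window runs from 250 bases before to 50 bases after a gene start in RefSeq (GRCm38.p6, the coordinates of mm10). The 6 stretches printed here held the most tags in both libraries together among promoters with tags in each, on the chromosomes used for sequences. All lie upstream of the start and read 5′ to 3′ on the strand of the gene, with the motif match in capitals:
Lsm11: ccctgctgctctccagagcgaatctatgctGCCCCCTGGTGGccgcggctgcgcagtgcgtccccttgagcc
Scap: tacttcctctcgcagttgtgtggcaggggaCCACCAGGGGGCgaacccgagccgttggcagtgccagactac
Mterf1a: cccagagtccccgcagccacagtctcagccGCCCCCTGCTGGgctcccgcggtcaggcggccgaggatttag
Agfg1: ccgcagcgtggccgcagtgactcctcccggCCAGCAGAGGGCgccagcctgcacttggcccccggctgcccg
Nabp2: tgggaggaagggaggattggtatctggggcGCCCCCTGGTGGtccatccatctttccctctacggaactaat
Gm36358: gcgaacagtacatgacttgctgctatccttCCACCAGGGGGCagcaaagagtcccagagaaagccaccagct

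The stretch of Lsm11 is chr11:45944997-45945068 on the reverse strand, that of Scap chr9:110333223-110333294 on the forward strand, and that of Mterf1a chr5:3894004-3894075 on the reverse strand. The stretch of Agfg1 is chr1:82839348-82839419 on the forward strand, that of Nabp2 chr10:128409992-128410063 on the reverse strand, and that of Gm36358 chr1:65112171-65112242 on the forward strand. The motif lay on the strand of the gene at Scap, Agfg1 and Gm36358 and on the opposite strand at the other 3. A match describes the letters in the window and does not show that CTCF bound them.

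Values are counts of tags per peak, each tag marking a base where digestion by the exonuclease ended. The authors listed peaks of 21 bp with at least 2 tags. Peaks were of 2 kinds. In a spread peak the tags started at more than 1 position, and in a 1-position peak all tags started at the same base. In kidney 383640 of the kept peaks, or 93.1%, were 1-position peaks, against 92346 or 85.9% in lung. Spread peaks numbered 28398 in kidney, with 95059 tags, and 15199 in lung, with 89235 tags. They held 6.81% of the kept tags in kidney and 14.2% in lung. The deposited total was 1635582 tags in kidney and 691479 in lung, and scaled tags are tags per 1000000 tags of these totals.

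The number of tags in a peak also differed between the organs. In kidney 36.5% of 1-position peaks had 2 tags and 20.6% had 5 to 9, whereas in lung 18.4% had 2 tags and 50.5% had 5 to 9. The median 1-position peak held 3 tags in kidney and 6 in lung. Lung 1-position peaks were most often of 2 tags and had a second maximum at 6 tags, with 11.4% of peaks, while the shares in kidney went down from 2 tags on. Spread peaks had means close to those of 1-position peaks of the same library, at 3.35 tags in kidney and 5.87 in lung. Tags of 1 peak may therefore not be independent molecules. The intervals for tags and for ratios of tags nevertheless treat each tag as independent. They cover counting error only and can be too narrow. Differences in scaled tags can carry this difference in tags per peak as well as a difference in sites, and its part in the results was not tested.

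**Figure D1:**
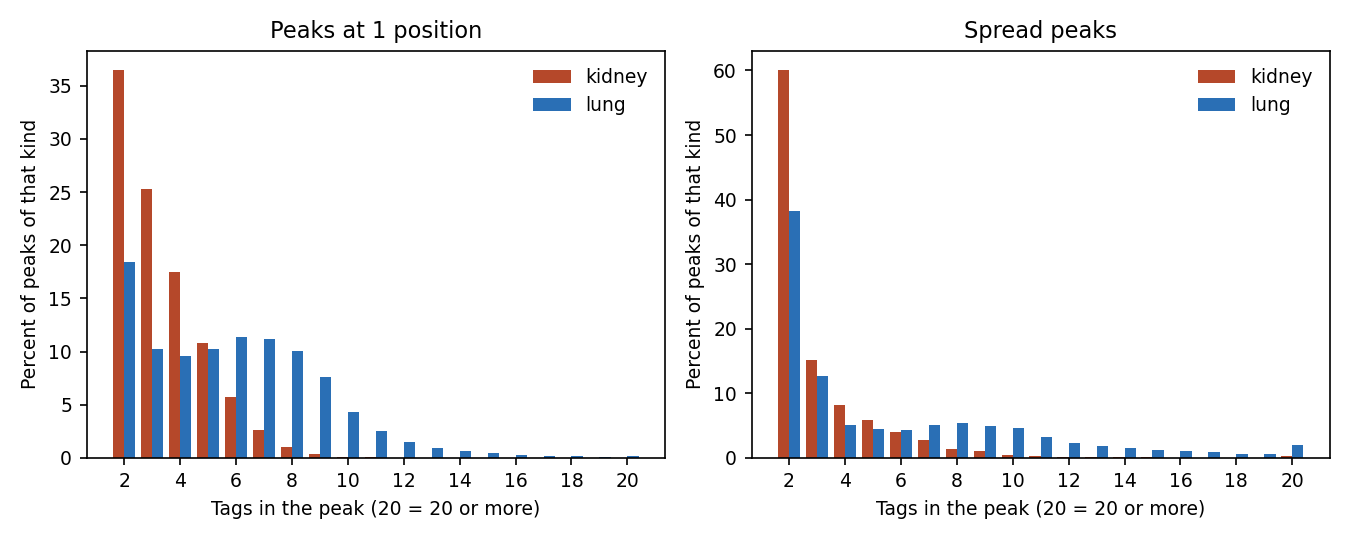
Percent of kept peaks (y axis) by the number of tags in the peak (x axis, 20 standing for 20 or more) for 1-position peaks and for spread peaks, in kidney and in lung. Kidney 1-position peaks fall off from 2 tags, with 36.5% of peaks, and lung 1-position peaks have a second maximum at 6 tags, with 11.4%.

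Few peaks of one organ had a counterpart in the other. A kidney spread peak was counted as shared when a lung peak of either kind lay on the same strand within 10 bp, which held for 2105 of 28398 peaks, or 7.41% (95% exact binomial interval 7.11 to 7.72). Of the lung spread peaks 2210 of 15199, or 14.5% (14.0 to 15.1), had a kidney peak. After a move of the peaks by 5 kb these shares were 0.0775% and 0.237%. For 1-position peaks the shares were 0.471% in kidney and 1.84% in lung, against 0.0568% and 0.226% after the move.

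Sharing went with the number of tags in spread peaks of both organs but hardly in 1-position peaks. Kidney spread peaks of 2 tags were shared in 3.95% of cases and those of 10 or more tags in 45.0% (40.4 to 49.6). In lung the same shares were 9.62% and 20.2% (18.7 to 21.6). There were 476 kidney spread peaks and 2992 lung spread peaks of 10 or more tags. Kidney 1-position peaks were shared in 0.446% of cases at 2 tags and in 0.530% at 5 to 9 tags, and lung 1-position peaks in 1.89% and 1.84%.

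To compare the organs at the same places, sites were taken from the library of 2700000 liver cells, which is neither side of the comparison. A site was a forward peak paired with the nearest reverse peak 10 to 80 bp downstream, with at least 10 tags, and tags were summed over 200 bp around its centre. Being drawn from liver, these 33185 sites cannot show binding that liver lacks. Lung had more of its signal there. The sites held 67917 spread tags in lung, or 76.1% of its kept spread tags (75.8 to 76.4), and 36433 in kidney, or 38.3% (38.0 to 38.6). The same windows moved by 5 kb held 527 tags in lung and 476 in kidney, so that the sites held 129 and 76.5 times as many.

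Relative to the library totals this was 98220 scaled spread tags in lung and 22275 in kidney, a ratio of 4.41 (4.35 to 4.47, exact interval for a ratio of counts). For 1-position peaks lung exceeded kidney by 5.31 (5.25 to 5.37). Brain and liver, the other organs, had 106853 and 45856 scaled spread tags at these sites, so kidney was the lowest of the 4 organs on this scale. Scaled to the kept spread tags of each library instead, lung exceeded kidney by 1.99. The ratio at the sites thus depended on which tags the libraries were scaled to.

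Spread tags reached fewer sites in kidney than in lung. In kidney 5655 sites, or 17.0% (16.6 to 17.4), held spread tags, and in lung 7136, or 21.5% (21.1 to 21.9). These counts are not scaled for depth. With kidney thinned at random to the tags of lung, over 20 draws, 3420 sites held spread tags in kidney, where the kind of each peak was taken from the full library. Of the moved windows 119 held spread tags in kidney and 81 in lung. Both organs had spread tags at 2726 sites, which were 48.2% of the kidney sites and 38.2% of the lung sites. With peaks of either kind, 12449 sites had tags in kidney, 14296 in lung and 7921 in both, or 63.6% and 55.4% of the sites of each organ. Sites with spread tags on both strands numbered 876 in kidney and 1431 in lung, 225 of them common to both.

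Both organs followed the strength of the sites in liver cells. When the sites were split into 10 groups by their liver-cell tags, 32.7% of the strongest group had spread tags in kidney and 38.6% in lung. In the weakest group these shares were 5.69% and 7.68%. The ratio of scaled tags, lung to kidney, was 3.16 in the strongest group and between 4.46 and 5.51 in the other 9. The lower value in the strongest group was accompanied by a few sites with very many kidney tags. The 20 sites of most tags held 18.2% of all kidney spread tags at sites and 3.65% of those of lung, and without them lung exceeded kidney by 5.19 over all sites.

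Forward peaks gathered before the site centre and reverse peaks after it in each organ. The sites were defined by such a pair in liver cells, so peaks that recur there take this order. It is therefore not separate evidence of a bound protein. Kidney spread peaks were most frequent at 17 bp before the site centre on the forward strand and 25 bp after it on the reverse strand, 42 bp apart. In lung they were most frequent at 25 bp before and 23 bp after, 48 bp apart. The median positions hardly differed, at 18 bp before and 23 bp after the centre in kidney and 17 bp before and 23 bp after it in lung. Within 40 bp of the centre lay 70.3% of the 7934 kidney peaks and 74.5% of the 10264 lung peaks found within 100 bp. The strand order was also alike, with 71.4% of kidney and 71.2% of lung peaks on the outer side for their strand. Peaks at 1 position were spaced by 43 bp in kidney and 51 bp in lung, with 58.6% and 61.0% within 40 bp. When peaks were weighted by their tags, the kidney distance was 20 bp and the lung distance 47 bp. This weighting counts the sites of many tags more.

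**Figure D2:**
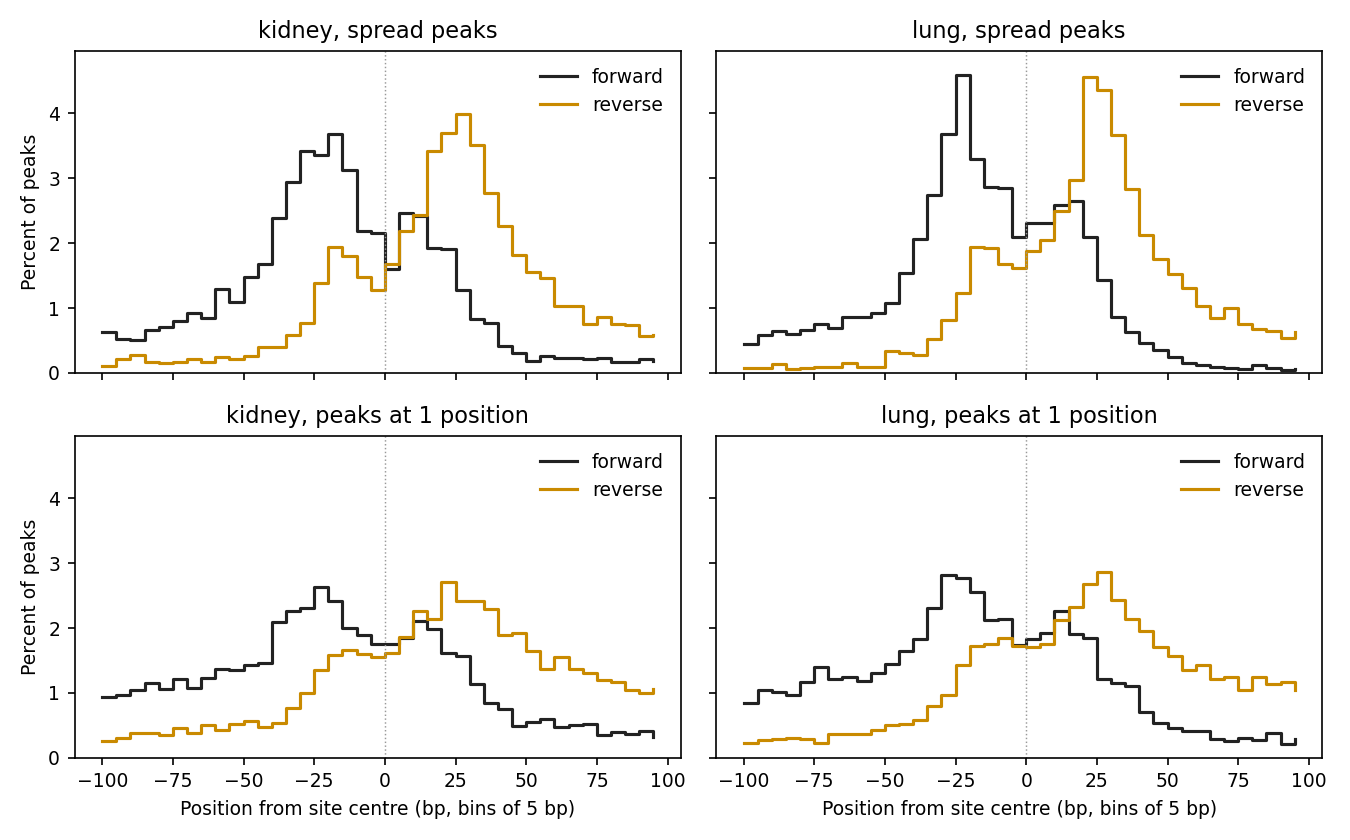
Percent of peaks (y axis) by position from the centre of the liver-cell site in bins of 5 bp (x axis), for forward and reverse peaks, with kidney on the left, lung on the right, spread peaks above and 1-position peaks below. Forward peaks gather before the centre and reverse peaks after it in all 4 panels, with the commonest positions of spread peaks 42 bp apart in kidney and 48 bp apart in lung. Their median positions hardly differ between the organs.

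Promoters that hold the motif had signal in both organs. Of the 180, 62 had spread tags in kidney (34.4%, 27.5 to 41.9) and 79 in lung (43.9%, 36.5 to 51.5), and these intervals overlapped. Of the 31216 promoters without the motif 1.64% had spread tags in kidney and 1.84% in lung. Both organs had spread tags at 37 of the promoters with the motif (20.6%), kidney alone at 25 (13.9%) and lung alone at 42 (23.3%). Over all 31396 promoters these counts were 269 (0.857%), 306 (0.975%) and 384 (1.22%), so lung alone exceeded kidney alone there as well.

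Scaled tags were lower in kidney at all 6 promoters printed above, like at most sites. Lsm11, which encodes a subunit of the particle that processes histone transcripts, had 14 spread tags in kidney and 25 in lung, or 8.56 and 36.2 scaled tags, a kidney to lung ratio of 0.237 (0.114 to 0.473). Scap, the escort protein of the sterol-sensing pathway, had 8 and 30, a ratio of 0.113 (0.0447 to 0.252). In lung the stops at Scap on the strand opposite to the motif included one of 14 tags 18 bp after the motif centre and one of 11 tags 17 bp before it.

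Agfg1 had 2 spread tags in kidney and 22 in lung, a ratio of 0.0384 (0.00438 to 0.156). Of the 22 lung tags 19 were in 1 peak that lay 38 bp before the motif centre. Mterf1a, a factor of mitochondrial transcription, had 8 and 17, a ratio of 0.199 (0.0743 to 0.486), and Nabp2, a single-stranded DNA binding protein of DNA repair, had 7 and 16, a ratio of 0.185 (0.0644 to 0.475). Gm36358 stood nearest to equality with 10 and 11 spread tags, a ratio of 0.384 whose interval (0.146 to 0.997) nearly reached 1.

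Among motif promoters with spread tags in 1 organ alone, the largest counts were seen in lung. The 3 largest of each organ were chosen after their values were seen. In lung they were Slc35e4 with 30 tags, Pcp4 with 27 and Gm38588 with 24, all at 0 in kidney, and with 0 set to a floor of 3 tags lung was at least 23.7-fold, 21.3-fold and 18.9-fold higher. In kidney they were Ext2, a heparan sulphate polymerase, with 12 tags, Cebpb, a transcription factor, with 7, and Gm30771 with 7. Against the same floor Ext2 was at least 1.69-fold higher in kidney, and 7 kidney tags, once scaled, were not above the floor in lung. At the Ext2 promoter lung had 8 tags in 1-position peaks, and at that of Slc35e4 kidney had 6, so neither promoter was empty in the other organ. A difference of that size was not detectable at the depth of lung.

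Around the 170 distinct motifs in promoters, the medians of spread peaks lay on the same sides in both organs. Spread peaks on the motif strand had a median position of 24 bp before the motif centre in kidney (38 peaks) and 31 bp before it in lung (55 peaks). On the opposite strand the median was 11 bp after the centre in kidney (42 peaks) and 19.5 bp after it in lung (64 peaks). The quartiles overlapped, running from 39.5 bp before to 12.3 bp after the centre on the motif strand in kidney and from 44 to 25 bp before it in lung. On the opposite strand they ran from 11 bp before to 28 bp after the centre in kidney and from 12 bp before to 43.2 bp after it in lung. Peaks at 1 position on the opposite strand had medians of 12 bp after the centre in kidney and 0.5 bp after it in lung, so there the lung peaks lay on no clear side.

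Ratios at single sites were computed for the 3629 sites with at least 10 spread tags in both libraries together, with 0.5 tags added to each count. With 1 library a side, a site was called when its scaled tags differed by at least 2 fold. Lung was higher at 3031 of the 3629 sites (83.5%) and kidney at 272 (7.5%), and 326 were past 2 fold in neither direction. The median log2 ratio of kidney over lung was -3.56. When the median was set to 0, which compares each site with the typical site, lung was higher at 1519 sites (41.9%) and kidney at 1248 (34.4%). A site at 0 in 1 library could reach 10 tags only through the other, so these counts describe the sites and are not a test.

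Of the sites higher in lung, 1462 had no spread tags in kidney, and 696 of those had 1-position tags there. Of the sites higher in kidney, 234 had no spread tags in lung, and 116 of those had 1-position tags there. With 0 set to a floor of 3 tags, 3026 of the sites higher in lung and 106 of those higher in kidney stayed past 2 fold. Once scaled, 10 kidney tags against 3 lung tags are less than 2 fold apart, whereas 10 lung tags against 3 kidney tags are more. Both strands were higher in the same organ at 173 of the 272 kidney sites (63.6%) and at 1055 of the 3031 lung sites (34.8%). A further 93 kidney sites and 1459 lung sites had no spread tags on 1 strand in either organ, so they were called on the other strand alone. The remaining 6 kidney sites and 517 lung sites were lower on 1 strand.

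**Figure D3:**
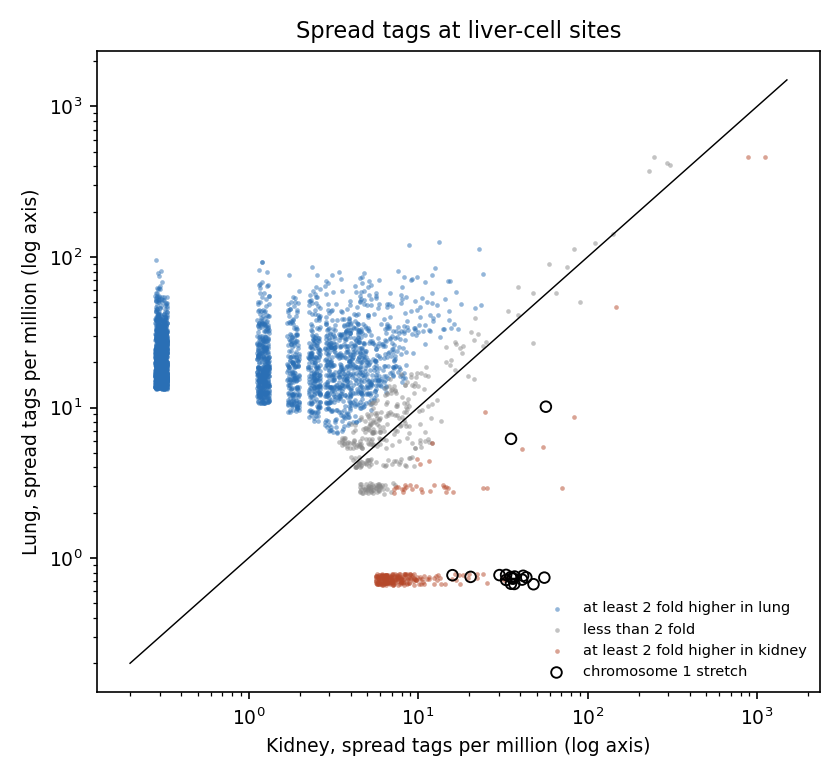
Scaled spread tags at the 3629 liver-cell sites in kidney (x axis, log) and lung (y axis, log), with sites at 0 drawn at 0.5 tags, points moved slightly at random so that equal counts can be seen, and the diagonal marking equal levels. Most sites lie above the diagonal, 3031 of them by at least 2 fold, and the 18 circled sites of the chromosome 1 stretch lie below it.

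The called sites had tags in brain less often than the sites past 2 fold in neither direction. In liver the share was lower at the sites higher in lung. It was higher at the sites higher in kidney, but by less once a chromosome 1 stretch described below was left out. Of all 3629 sites compared, 3031 were those higher in lung, so the shares over all sites mostly follow them. Brain had spread tags at 87.1% of the sites higher in kidney and at 83.6% of those higher in lung, against 84.7% of all 3629 sites compared and 92.9% of those past 2 fold in neither direction. Liver had spread tags at 60.7% and 40.02% of them, against 42.9% of all sites compared and 55.2% of those in neither direction. Without the chromosome 1 stretch, 254 sites were higher in kidney. Brain had spread tags at 86.2% of these and liver at 57.9%, close to the 55.2% in neither direction. The median site higher in kidney held 13 spread tags in kidney, 0 in lung, 9 in brain and 2 in liver, and the median site higher in lung held 14 in lung, 2 in kidney, 8 in brain and 0 in liver. The values in kidney and lung follow from the way these sites were chosen, and the counts are not scaled to the library totals.

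The 5 sites with the lowest kidney to lung ratio, among sites of at least 20 tags, had no spread tags in kidney. The first, at chr2:30794916-30795115, lay 547 bp from 1700001O22Rik and had 68 spread tags in lung, 37 forward and 31 reverse, and 3 tags at 1 position in kidney. Lung was at least 53.6-fold higher there. A site inside Ccn5, which encodes a secreted matrix protein, at chr2:163823380-163823579, had 53 spread tags in lung, 31 in brain and 5 in liver. By spread tags it was at least 41.8-fold higher in lung, and kidney had 7 tags at 1 position there. One inside Mical3, an oxidase that acts on actin, at chr6:120971723-120971922, also had 53 lung tags, and 54 in brain.

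The site at chr1:133039472-133039671, 3702 bp from Gm41953, had 52 lung tags of which 50 were on the forward strand. The site at chr15:85598936-85599135, 5328 bp from AU022754, had 46 lung tags, 28 forward and 18 reverse, and 0 spread tags in brain. These 5 sites held 2 to 6 spread tags each in liver.

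The 5 sites with the highest kidney to lung ratio lay in 1 stretch of 10 kb at chr1:24610001-24620000, between genes and 24264 to 28034 bp from Col19a1, a collagen gene. They had 92, 75, 73, 71 and 63 spread tags in kidney on both strands and 0 in lung, which made kidney at least 8.88-fold to 13.0-fold higher. In all 18 sites higher in kidney lay in this stretch, with 27 to 92 spread tags each in kidney. A copy of mitochondrial sequence in the nuclear genome is known there. Over the whole stretch kidney had 880 scaled tags, lung 39.0, brain 2111 and liver 1664. On the mitochondrial genome itself kidney had 4511 scaled tags, lung 278, brain 10953 and liver 10231, which is the same order of the 4 organs. The part of mitochondrial DNA in this difference was not tested. Without it, 254 sites were higher in kidney.

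Outside that stretch the highest ratios, chosen after their values were seen, were also seen against 0 spread tags in lung. Inside Gm39326, at chr9:44881377-44881576, kidney had 53 spread tags, at least 7.47-fold above lung, and brain had 15 and liver 2. A site at chr12:97061668-97061867, 180488 bp from Gm40552, also had 53, of which 47 were on the reverse strand. Brain had 43 spread tags there and liver 38. One 195900 bp from Chl1, at chr6:103314584-103314783, had 51 kidney tags and 10 lung tags at 1 position, with 38 spread tags in brain and 44 in liver. Inside Myo3a, a myosin gene, the site at chr2:22589128-22589327 had 49, and 7 sites higher in kidney lay in the same 10 kb with 160 kidney tags and none in lung. Brain had 278 tags at those 7 sites and liver 94, so their signal was not particular to kidney. The site at chr15:75086351-75086550, 16991 bp from Gm52219, had 45 kidney tags, and its 10 kb held 5 such sites. Together those 5 had 201 tags in kidney, 6 in lung, 56 in brain and 206 in liver.

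The sites with the most tags had signal in every organ. At chr12:3109816-3110015, 125875 bp from Rab10os, kidney had 1681 spread tags and lung 307, or 1028 and 444 scaled tags, a kidney to lung ratio of 2.31 (2.05 to 2.62). At chr6:103649112-103649311, inside Chl1, a neural adhesion gene, they had 1481 and 301, a ratio of 2.08 (1.84 to 2.36). The next 3, near A530076I17Rik and BC048403 and inside Gm17660, had 420 to 481 kidney tags and 277 to 293 lung tags, with ratios of 0.606 to 0.734. At these 3 nearly all tags were on the reverse strand, with 0 to 4 forward tags in kidney and 0 to 10 in lung.

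Lung peaks lay nearer to genes than kidney peaks. Within 1 kb of a gene start or end were 19.8% of lung spread peaks (19.1 to 20.4) and 10.2% of kidney spread peaks (9.82 to 10.5). For 1-position peaks the shares were 11.4% and 6.64%, and for the liver-cell sites 11.5%, or 9.19% after a move by 5 kb. The sites themselves differed less by organ, with 21.9% (20.4 to 23.4) of those higher in lung and 18.01% (13.6 to 23.1) of those higher in kidney near a gene end, and 22.1% of those past 2 fold in neither direction.

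Chromosomes were compared by all kept peaks and by spread peaks alone. With all kept peaks, kidney had a smaller share of its kept tags than lung on chromosome 11, where the ratio of shares was 0.784, and on chromosomes 19 and 17, with 0.865 and 0.871. The ratio was highest on chromosome 3, at 1.18, followed by chromosome 1 at 1.13 and chromosome 13 at 1.12. With spread peaks alone the order differed, with the highest ratios on chromosomes 12 and 1, at 1.64 and 1.51. The lowest was on chromosome 19, at 0.775, and chromosome 3 had 0.985. On chromosome 12 the site near Rab10os alone held 1681 kidney and 307 lung spread tags. On chromosome 1 the stretch near Col19a1 held 1400 and 11. The part of these places in the ratios was not tested. Over the 19 autosomes the ratio of all kept peaks went with the number of protein-coding genes per Mb, with a Pearson r of -0.885 and a Spearman rho of -0.893. For 1-position peaks alone r was -0.848 and for spread peaks -0.658. The chromosomes share the 2 libraries and differ in base composition as well, so these values are a description.

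**Figure D4:**
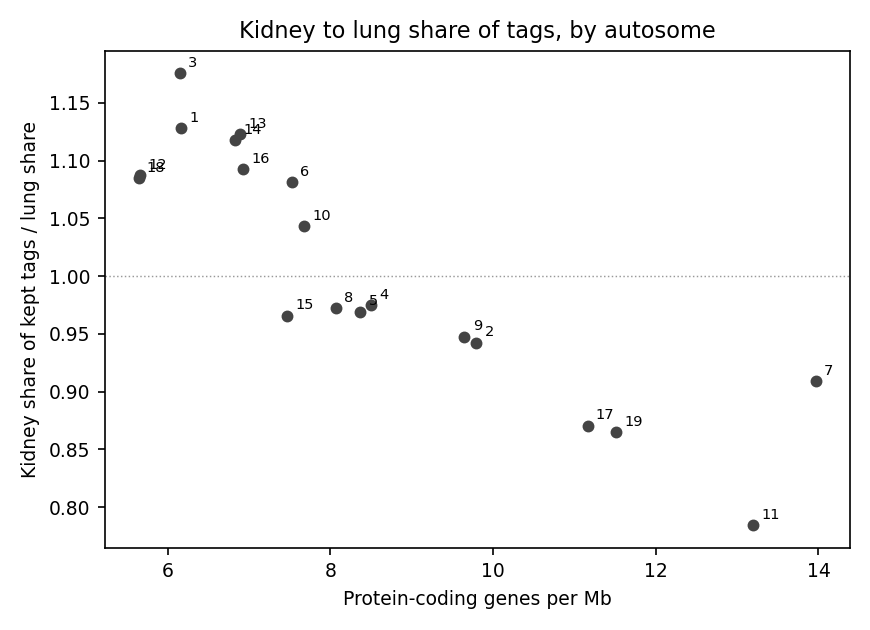
Share of kept tags of both kinds of peak on each autosome in kidney divided by that in lung (y axis) against protein-coding genes per Mb (x axis), with 1 point per autosome labelled by its number and the dotted line at equal shares. Chromosome 11, rich in genes, has the lowest ratio at 0.784, and chromosome 3 the highest at 1.18.

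Genes were compared by the spread tags over the gene with 10 kb on each side. CTCF tags near a gene are not its expression, so the lists describe neighbourhoods of genes and do not check the tissue. Of 6826 genes with at least 10 tags, lung was higher by 2 fold at 5013 (73.4%) and kidney at 766 (11.2%), with a median log2 ratio of -2.38. Spread tags of any number were found at 13721 of 33073 genes in kidney and at 9881 in lung, so more genes had spread tags in kidney. With the median of the genes set to 0, kidney was higher at 2174 genes and lung at 2099, so the side with more genes turned with the scaling. With peaks of both kinds, lung was higher at 8906 genes and kidney at 7810, with a median log2 ratio of -0.25.

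Of the 38 genes of the kidney tubule and the podocyte 8 had 10 tags, and 7 of these were higher in lung and none in kidney, beside 73.4% and 11.2% of all genes compared. Their median log2 ratio was -3.27, or -0.89 with the median of all genes set to 0, when 3 were higher in lung and 1 in kidney. When peaks of both kinds were used, all 38 had 10 tags, 12 were higher in kidney and 11 in lung, and the median was 0.43 against -0.25 over all genes, so the sign of the median turned with the kind of peak. Slc34a1, the phosphate transporter of the proximal tubule, had 13 spread tags in kidney and 53 in lung, or 7.95 and 76.6 scaled tags. Slc12a1, the salt transporter of the loop of Henle, had 6 and 37, or 14.6-fold more scaled spread tags in lung (6.10 to 42.3). Its 1-position tags were 40 in kidney and 57 in lung. Lrp2, the endocytic receptor megalin, had 2 and 24, although its 1-position tags were 138 in kidney and 16 in lung. Hnf4a, a transcription factor of the proximal tubule, had 14 and 18, with 3.04-fold more scaled spread tags in lung (1.43 to 6.61). Its 1-position tags were 55 in kidney and 63 in lung. Slc12a3, the thiazide-sensitive transporter, had 9 and 5 and was past 2 fold in neither direction.

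Of the 34 genes of lung epithelium and stroma 7 had 10 tags, 5 of them higher in lung and 1 in kidney, which is near the shares of all genes. The median was -1.95, and with the median of all genes set to 0 it was 0.43, with 3 genes higher in each organ. With peaks of both kinds 11 genes were higher in lung and 9 in kidney, beside 8906 and 7810 of all genes. Abca3, a lipid transporter of surfactant-making cells, had 0 spread tags in kidney and 14 in lung, at least 11.04-fold more in lung. This fold is of spread tags alone, and its 1-position tags were 89 in kidney and 21 in lung. Aqp5, a water channel, had 2 and 19, and Tbx2, a transcription factor, 9 and 15. Foxa2, a transcription factor of lung and other endoderm, went the other way with 14 tags in kidney and 0 in lung, which against the floor of 3 tags is at least 1.97-fold, just under the fold used. Cbr2, an enzyme of airway cells, had 23 and 6, a kidney to lung ratio of 1.62 (0.641 to 4.87), whose interval included 1.

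Endothelial genes had a median of -3.80, with 8 of the 9 genes of at least 10 tags higher in lung and none in kidney, beside 73.4% and 11.2% of all genes. With the median of all genes set to 0, 6 were higher in lung and 1 in kidney, with a median of -1.42. The endothelial median was the lowest of the lists, but over the gene alone it was -3.40, against -4.15 for widely expressed genes. With peaks of both kinds it was -0.49, against -0.25 over all genes. On that measure 8 genes were higher in lung and 2 in kidney, beside 8906 and 7810 of all genes. Vwf, the clotting factor of endothelium, had 8 spread tags in kidney and 49 in lung, 14.5-fold more scaled spread tags in lung (6.80 to 35.4). At 1 position Vwf had 151 tags in kidney and 82 in lung, so this fold is of spread tags alone. Sox18, a transcription factor of vessels, had 0 and 29, at least 22.9-fold more spread tags in lung. Its 1-position tags were 37 in kidney and 44 in lung. Eng, a coreceptor of vessels, had 15 and 29 spread tags, and 51 and 10 tags at 1 position. Flt1, a receptor of vascular growth factor, had 71 and 39 tags, or 43.4 and 56.4 scaled tags, and was past 2 fold in neither direction.

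Of the 21 autosomal genes of blood and immune cells 4 had 10 tags, 3 of them higher in lung and 1 in kidney. This stands beside 73.4% and 11.2% of all genes compared. The median log2 ratio was -3.11. With the median of all genes set to 0 it was -0.73, with 2 genes higher in lung and 1 in kidney. With peaks of both kinds, 20 genes had 10 tags, of which 7 were higher in lung and 2 in kidney, beside 8906 and 7810 of all genes. Cd79a, of the B cell receptor, had 3 spread tags in kidney and 29 in lung, and Spi1, a transcription factor of myeloid cells, 15 and 24. Mrc1, a receptor of macrophages, had 0 and 14, although its 1-position tags were 58 in kidney and 30 in lung. Cd8a, of T cells, had 10 and 0, at least 1.41-fold more in kidney against the floor.

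Of the 5 widely expressed genes with 10 tags 4 were higher in lung and none in kidney, near the shares of all genes, with a median of -2.09. With the median of all genes set to 0 the list's median was 0.29, with 1 gene higher in kidney and 0 in lung, so its direction turned with the scaling. Rpl13a, a ribosomal protein gene, had 13 and 24 tags, Hsp90ab1, a chaperone, 13 and 19, and Gapdh, a glycolytic enzyme, 7 and 13. Actb, of the cytoskeleton, had 6 and 13 and was the lowest of the list, and Rplp0, with 12 and 7, was past 2 fold in neither direction.

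For CTCF and the cohesin genes the median was -2.19, with 5 of 9 genes higher in lung and 1 in kidney, beside 73.4% and 11.2% of all genes. With the median of all genes set to 0 it was 0.19, with 1 higher in lung and 4 in kidney. With peaks of both kinds 3 were higher in each organ, beside 8906 of all genes in lung and 7810 in kidney. Stag1, a cohesin subunit, had 31 tags in kidney and 18 in lung and was past 2 fold in neither direction, whereas Smc3, of the cohesin ring, had 8 and 30. Ctcfl, the germline relative of CTCF, had 7 and 29. Esco1, which acetylates cohesin, had 0 and 12 spread tags, at least 9.46-fold more in lung. Zfp143, a factor found with CTCF at promoters, had 10 and 0, at least 1.41-fold more in kidney. These folds are of spread tags alone. Tags at 1 position were 53 in kidney and 59 in lung at Esco1, and 51 and 24 at Zfp143. They were 52 and 16 at Smc3, 44 and 34 at Ctcfl, and 207 and 86 at Stag1.

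**Figure D5:**
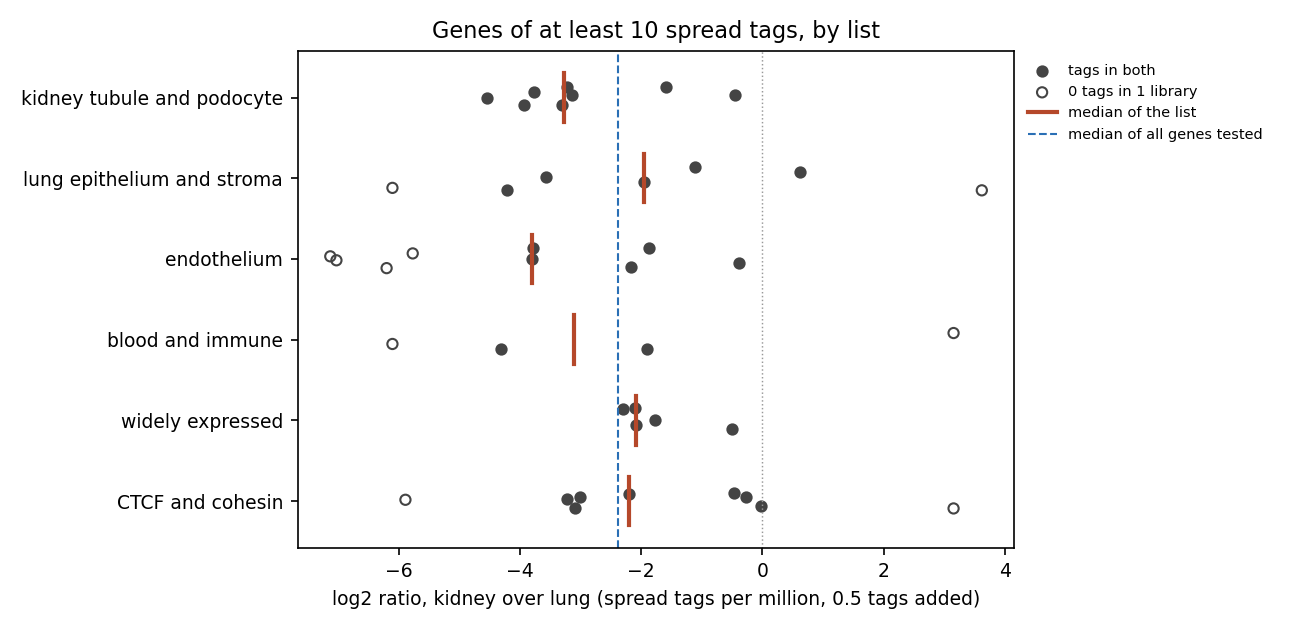
Log2 ratio of kidney over lung (x axis, scaled spread tags over the gene with 10 kb on each side, 0.5 tags added) for the genes with at least 10 tags in each of the 6 lists (y axis), with open circles for genes at 0 in 1 library, a bar at the median of each list and a dashed line at the median of all genes tested. The list medians run from -3.80 for endothelium to -1.95 for lung epithelium and stroma, around -2.38 for all genes.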

How the data were processed

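The authors sequenced 2 reads of 40 bp per fragment, kept unique alignments without PCR duplicates, and called peaks with GeneTrack. The submitters' processing notes name BWA 0.7.9a, bcl2fastq 2.16 and the build mm10. The values deposited by the authors are raw counts of tags in each peak, together with the standard deviation of the tag positions in bp, which is 0 where all tags start at 1 position. Each library had its peaks called separately.

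Here tags were scaled to the total of all tags deposited for the library. Control windows were moved by 5 kb. Sites, 200 bp apart or more, came from the library of 2700000 liver cells. Gene positions came from RefSeq (GRCm38.p6). Intervals are exact 95% intervals and cover counting error only, and those for tags treat each tag as independent. No test was run, since each organ has 1 library, and 3 tags served as the floor of a count of 0.

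The sites named are the 5 highest and 5 lowest ratios among sites of at least 20 tags and the 5 with most tags. The promoters printed leave out chromosome 18. The genes named in each list are the 3 with most tags and the highest and lowest ratio. Members, lists and rules were chosen with earlier results of these data known. The functions were checked on simulated data. The analysis used scipy 1.17.1, pandas 2.3.3, numpy 2.4.6 and matplotlib 3.10.9 in Python 3.11.15. Sequences at sites outside promoters are not given here.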

Additional observations from a re-analysis of the deposited data

Results flagged for a closer look

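The mitochondrial genome, which was left out of the comparison, held 0.451% of the tags in kidney and 0.0278% in lung. These values are noted because they lie in data outside the main measurement and above what a count of 0 would allow. Kidney had 1075 peaks there, 1043 of them spread, and lung had 43, of which 12 were spread.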

How the results depend on the processing

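No paired analysis was possible because each organ has 1 library, and for the same reason no library could be left out. Of 56 alternative values 12 stayed within the interval or within 1.5 times the value given, and 44 moved. The order of the organs turned in 2 cases, the genes with the median set to 0 and the shared peaks of at least 5 tags. For those shared peaks the counterpart in the other organ also had to hold at least 5 tags. The cause of these moves was not tested. The share of kidney spread peaks with a lung peak was 4.85% within 5 bp, 10.5% within 20 bp, 9.79% for peaks of at least 5 tags, 6.88% without bins of 10 peaks and 11.6% with no dense bins left out, and for lung spread peaks these were 9.52%, 20.7%, 6.74%, 13.7% and 21.2%. Scaled tags at the liver-cell sites, lung over kidney, were 4.89 with all peaks, 5.16 with 1-position peaks counted as 1 tag, 4.57 and 4.14 in a narrower window and a window of 2 times the width, 1.99 scaled to the kept spread tags, 3.89 at the 10000 sites of most tags, 4.87 without bins of 10 peaks and 2.73 at sites from brain. Alternatives chosen after seeing the data gave 4.86 for peaks in place of tags and 5.19 without the 20 sites of most tags. Sites higher in lung numbered 4551 at 5 tags, 994 at 20 tags, 7806 with all peaks and 1519 with the median set to 0. Sites higher in kidney numbered 635 scaled to the total at the sites (2054 in lung), 1119 at 5 tags, 66 at 20 tags, 88 with kidney thinned to the tags of lung, 444 with all peaks, 1248 with the median set to 0 and 123 with 0 set to 3 tags and nothing added. The kidney stops weighted by tags were 20 bp apart. Genes higher in lung numbered 2144 over the gene alone, 11318 with 50 kb on each side, 3033 scaled to the total over genes, 8906 with all peaks and 2099 with the median set to 0, and those higher in kidney 486, 1786, 1560, 7810 and 2174. Promoters with the motif and tags of either kind numbered 112 in kidney and 134 in lung. At the depth of lung, 10 kidney tags against the floor of 3 lung tags are under 2 fold apart.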
